A study of Mus musculus with 2 samples.

Results

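The Dux locus of the mouse lies on chromosome 10, and DPPA2 binding there was taken as every deposited peak that touched a window of 700 kb (mm10 build), from 330 kb below the Duxf3 gene to 367 kb above it. The rule gave 7 peaks, 4 of the 7043 in the untreated list and 3 of the 16229 in the adriamycin list. The peaks were chosen by position, but the region itself was selected on the fold, width and −log10 q of these peaks in both lists. Its strengths and changes are therefore a description, and no test was run on them. DPPA2 was mapped by chromatin immunoprecipitation and sequencing (ChIP-seq, which counts DNA fragments pulled down with a protein) in R1/E, a line of mouse embryonic stem cells kept on gelatin in medium with serum and leukemia inhibitory factor. Untreated cells gave 1 library, and cells held in adriamycin for 8 h gave the other. The series' design text gives the cells of both as p53+/+. The genotype field of the untreated library reads WT, and that of the treated library holds its treatment in place of a genotype. Adriamycin (doxorubicin) is a topoisomerase poison that breaks DNA. The design asks where DPPA2 sits once DNA is damaged. With 1 library per group, each difference below is one between 2 libraries, with no estimate of the spread between replicates.

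Duxf3, usually called Dux, encodes a transcription factor with a pair of homeodomains. It is transcribed briefly when the embryonic genome is first switched on, and its product turns on genes of the 2-cell stage such as the Zscan4 cluster. In embryonic stem cells the gene is silent in most cells and active in a rare 2-cell-like state, and DPPA2, with its partner DPPA4, is known as an activator of it. Dux genes sit in tandem repeats, and p53 has been linked to their activation after DNA damage. In a tandem repeat, fragments from several near-identical copies can align to the same place. How the authors treated such fragments is not given in the sources used here, so a fragment number at this locus may sum over copies, including copies missing from the assembly.

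The 700 kb held 12 annotated genes, 7 of them protein-coding. The stretch from LOC100504180 to Gm9919 is called the array here by position only, as the extent of the repeat was not mapped. From low to high coordinates the array region held LOC100504180 (58222403 to 58225832), the pseudogene Gm10807 (58227857 to 58228664), Duxf3 (58229505 to 58233089, read from the minus strand), Gm4981 (58234848 to 58236660) and Gm9919 (58239034 to 58252702), a transcript without a coding class. Beyond it lay Gcc2, which encodes a Golgi coiled-coil protein, Lims1, an adaptor of integrin signalling, Ranbp2, a nuclear pore protein, Ccdc138, and 3 further non-coding or pseudogene entries.

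The promoters of Duxf3 and of Ranbp2, the gene with the fourth untreated peak, are shown because the peaks lie beside or across them and because they differ in CpG content. Both come from RefSeq (GRCm38.p6, the mm10 build), run 5′ to 3′ on the gene's strand from 250 bases before to 50 after the start site, and carry each CpG in capitals. The table held 5 of the 12 genes of the window.
Duxf3, chr10:58233040-58233339, minus strand: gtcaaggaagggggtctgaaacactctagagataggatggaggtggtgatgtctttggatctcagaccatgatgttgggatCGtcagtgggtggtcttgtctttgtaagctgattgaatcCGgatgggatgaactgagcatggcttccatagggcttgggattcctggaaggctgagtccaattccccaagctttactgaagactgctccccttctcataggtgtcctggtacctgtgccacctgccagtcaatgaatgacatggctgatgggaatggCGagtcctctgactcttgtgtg
Ranbp2, chr10:58446602-58446901, plus strand: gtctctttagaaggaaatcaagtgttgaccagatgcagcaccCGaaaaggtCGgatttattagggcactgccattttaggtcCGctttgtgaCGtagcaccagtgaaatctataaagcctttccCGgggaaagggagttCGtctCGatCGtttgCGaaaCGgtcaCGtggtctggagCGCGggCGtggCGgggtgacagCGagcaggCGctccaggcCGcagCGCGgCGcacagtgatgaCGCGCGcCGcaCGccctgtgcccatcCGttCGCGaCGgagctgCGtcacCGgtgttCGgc

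The Duxf3 promoter was poor in CpG. It held 3 CpG, and 23.3% of 32807 promoter windows of the same length held fewer, whereas Ranbp2 held 33 CpG, more than 91.4% of them. The median window held 7. Base composition differed less, with 51.0% G or C for Duxf3, 60% for Ranbp2 and a median of 52.7%. The letters TGATT, then any base, then AATC, part of the sequence that DUX is known to recognise, occurred once in the Duxf3 window as tgattgaatc, beginning 140 bases before the start site. On either strand 38 of the windows (0.116%) held it, and this search was chosen after the sequence had been read. A p53 half-site was not found in the Duxf3 or Ranbp2 window and was found in that of Gm4981. Of all windows, 8.36% held one.

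Each peak is described by 3 values. The fold enrichment is the authors' peak caller's ratio of the summit to the local background and is not scaled between libraries. The −log10 q is the caller's value for the same summit. The pileup is the number of fragments over the summit, recovered here from the deposited fold and −log10 p, and it is given with a 95% exact Poisson interval that covers counting error only. Genome-wide, the background stood at 1.19 fragments untreated and 1.03 with adriamycin, and the median peak had a pileup of 14 fragments and a width of 292 bp untreated and 14 fragments and 314 bp with adriamycin.

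DPPA2 had its strongest peak of the locus inside Duxf3. In the untreated library this peak ran from 58231784 to 58232891 (1108 bp), with its summit at 58231980, a fold of 8.70, a −log10 q of 104 and a pileup of 187 fragments (161 to 216). In the adriamycin library it ran from 58231733 to 58232913 (1181 bp), with its summit at 58231957, a fold of 10.9, a −log10 q of 197 and a pileup of 305 fragments (272 to 341). The pileup intervals of the libraries did not overlap. The summit lay 1109 bp downstream of the Duxf3 start site untreated and 1132 bp downstream with adriamycin, in the body of the gene. The peak's edge stopped 148 bp short of the promoter window shown above in the untreated library and 126 bp short of it with adriamycin. A search for summits within 1 kb of a gene end therefore does not count Duxf3 in either library.

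The second peak of the array lay inside LOC100504180, whose symbol carries no function. In the untreated library it ran from 58224243 to 58225282 (1040 bp), with its summit at 58225097, a fold of 8.08, a −log10 q of 82.1 and a pileup of 156 fragments (132 to 182). With adriamycin it ran from 58224227 to 58225289 (1063 bp), with its summit at 58225092, a fold of 9.55, a −log10 q of 121 and a pileup of 204 fragments (177 to 234). These intervals overlapped. The untreated peak lay wholly within the adriamycin one, as it did at Duxf3.

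The last peak of the array was narrower and weaker, and lay at the lower-coordinate end of Gm9919. Untreated it ran from 58239211 to 58239654 (444 bp), with its summit at 58239529, a fold of 9.47, a −log10 q of 25.9 and a pileup of 42 fragments (30.3 to 56.8). With adriamycin it ran from 58239363 to 58239679 (317 bp), with its summit at 58239533, a fold of 9.02, a −log10 q of 20.6 and a pileup of 34 fragments (23.5 to 47.5). Here the adriamycin pileup was the lower one and the intervals overlapped. In the untreated library its fold was the highest of the array although its pileup was the lowest, since its local background was 3.54 fragments against 20.6 at Duxf3.

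The fourth untreated peak had no adriamycin counterpart. It ran from 58446891 to 58447160 (270 bp) at the start of Ranbp2, with its summit at 58447079, 227 bp inside the gene, a fold of 5.67, a −log10 q of 6.08 and a pileup of 15 fragments (8.40 to 24.7). It covered 11 bases of the CpG-rich window shown above. Its pileup was near the median of its list, and no adriamycin summit came nearer to an end of Ranbp2 than 157445 bp. Over the genome 79.1% of untreated peaks were paired with an adriamycin peak, and 34.3% of adriamycin peaks with an untreated one; at the locus these were 3 of 4 and 3 of 3.

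**Figure D1:**
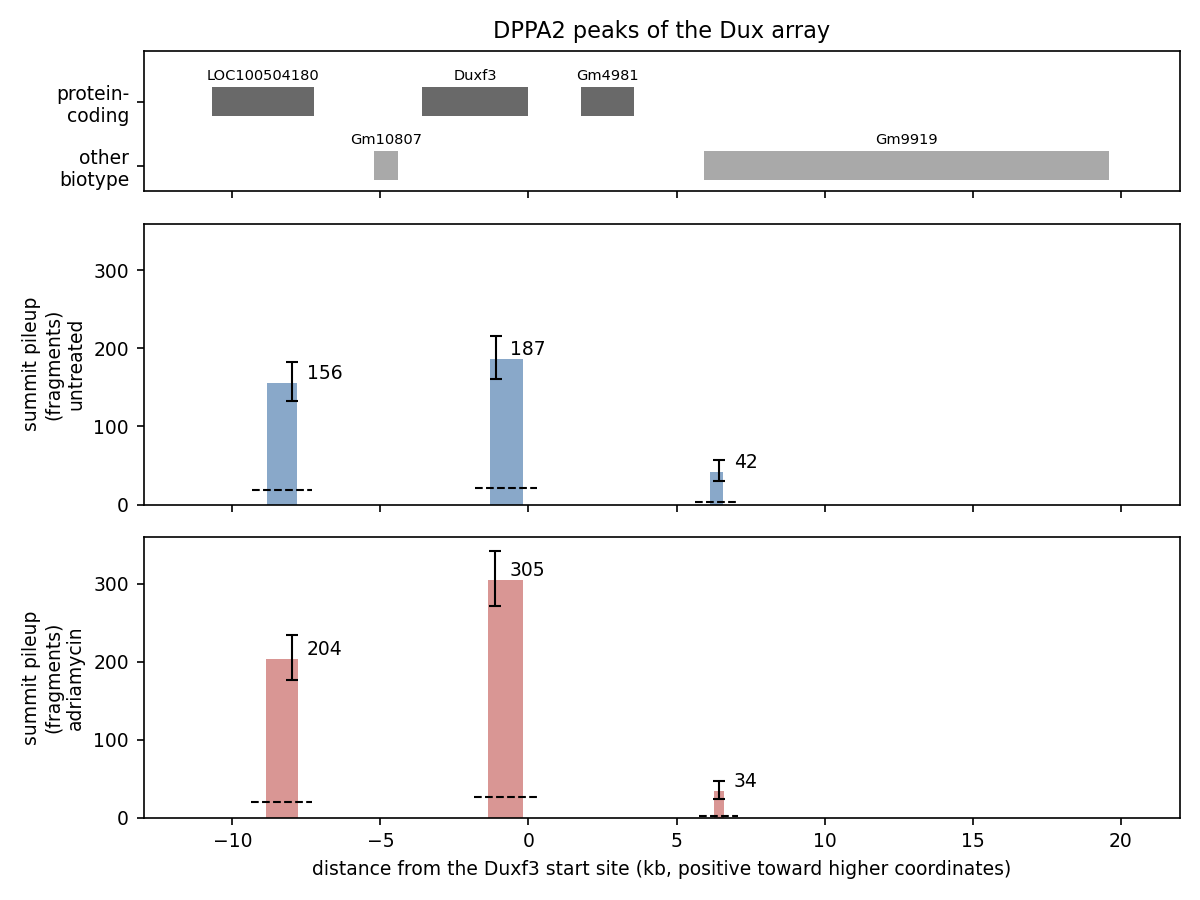
Genes (top) and DPPA2 peaks of the array in the untreated (middle) and adriamycin (bottom) library, by distance from the Duxf3 start site in kb. Each bar spans a peak and rises to its summit pileup in fragments, error bars are 95% exact Poisson intervals at the summit, and dashed lines give the local background. The pileups read 156, 187 and 42 untreated and 204, 305 and 34 with adriamycin, and no bar stands over Gm4981.

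The 3 array peaks held their places between the libraries. Their summits moved by 5, 23 and 4 bp, in the order LOC100504180, Duxf3, Gm9919. Neighbouring summits were 6883 and 7549 bp apart untreated and 6865 and 7576 bp apart with adriamycin. At LOC100504180 the summit sat towards the higher-coordinate edge of the peak, at 82.1% of its width untreated, and at Duxf3 towards the lower-coordinate edge, at 17.7%. With adriamycin these positions were 81.4% and 19%. Gm4981, between the Duxf3 and Gm9919 peaks, had no peak over it, and its ends lay 2868 bp from the nearest untreated and 2873 bp from the nearest adriamycin summit.

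No other peak lay in the 700 kb. The closest outside had far lower pileups than the Duxf3 and LOC100504180 peaks. In the untreated list these were 133 kb below the window (fold 7.75, pileup 16) and 161 kb above it (fold 6.44, pileup 16). In the adriamycin list a peak inside Edar, an ectodysplasin receptor gene, lay 51.5 kb above the window (fold 4.32, pileup 11), and another 118 kb below it (fold 6.25, pileup 16).

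The Duxf3 and LOC100504180 peaks were among the tallest and widest of the genome, but not among those with the highest fold. By pileup Duxf3 ranked 35 of 7043 untreated and 21 of 16229 with adriamycin, and LOC100504180 ranked 42 and 30. By width Duxf3 ranked 18 and 22, and LOC100504180 ranked 24 and 43. By −log10 q Duxf3 ranked 45 and 20. By fold Duxf3 ranked 369 and 280, and LOC100504180 ranked 526 and 541. Ranks from lists of different length show no change between libraries. Because the region was selected on fold, width and −log10 q, these ranks are a description only.

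The gap between fold and pileup followed from the local background, which was high at both peaks. At Duxf3 it was 20.6 fragments untreated and 27.0 with adriamycin, 17.3 and 26.3 times the genome-wide value, ranking 23 and 21 in the lists. At LOC100504180 it was 18.4 and 20.5 fragments, 15.5 and 19.9 times. At Gm9919 it was 3.54 and 2.88 fragments, 2.97 and 2.80 times. Local backgrounds came in steps of 0.02 fragments, which 200 bp fragments counted over 10000 bp give. Read that way, the Duxf3 values correspond to 1030 fragments in 10 kb untreated and 1349 with adriamycin, and those of LOC100504180 to 922 and 1023. Such a window takes in the peak itself and, here, part of its neighbour's surroundings. No input profile was used here, and the part of repeat copies in these heights was not tested.

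**Figure D2:**
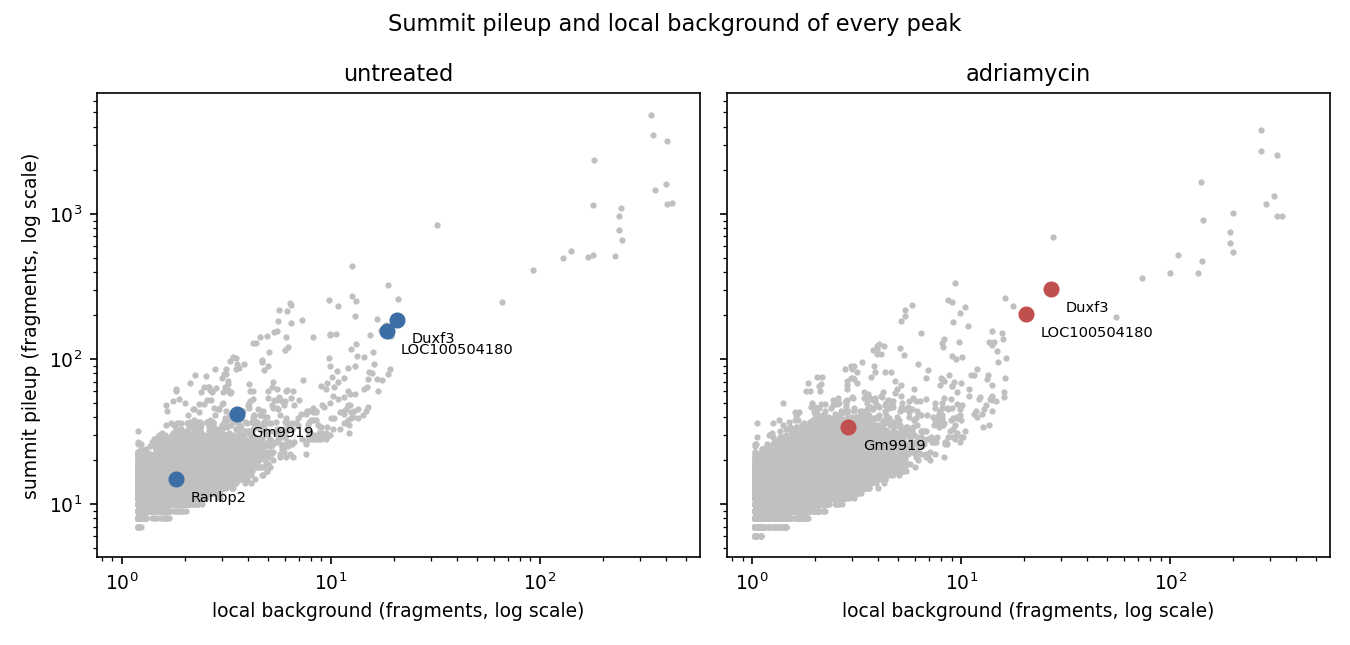
Summit pileup against local background, both in fragments on log scales, for every peak (grey) in the untreated and adriamycin lists, with the peaks of the Dux window in colour. The Duxf3 and LOC100504180 peaks lie high on both axes, below a few taller peaks, with pileups of 187 and 156 fragments untreated and 305 and 204 with adriamycin, whereas Gm9919 lies lower, at 42 and 34 fragments, and Ranbp2, at 15, near the median peak.

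As a group the array stood out by height rather than by number of peaks. Its region was selected on the strength of these same peaks, so its places by height describe that selection. The 700 kb window held 4 untreated peaks, a number that 13.5% of 3862 windows of that length reached, and 3 adriamycin peaks, which 63.8% reached. The summed pileup of the window was 400 fragments untreated and 543 with adriamycin, against window medians of 19 and 49, and 16 and 11 windows had more. Runs of at least 3 peaks with neighbouring summits no more than 10 kb apart occurred 70 times in the untreated list and 189 times with adriamycin. The array run spanned 14432 bp and summed to 385 fragments untreated, where 9 runs had more, and spanned 14441 bp and summed to 543 with adriamycin, where 3 had more.

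To compare libraries, each pileup was divided by the genome-wide background of its library, and the ratio of adriamycin to untreated was called from 1.5 upward or from its inverse downward. The Duxf3 ratio was 1.89 (1.57 to 2.28) and the LOC100504180 ratio 1.52 (1.23 to 1.88), so that 2 of the 3 shared array peaks passed 1.5. The Gm9919 ratio was 0.939 (0.580 to 1.51) and did not. Over all 5565 shared peaks outside the window 31.9% passed 1.5, and 1.08% passed its inverse. With 31.9% as background, 2 of 3 peaks past 1.5 is not a result about the array by itself.

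Without scaling, the Duxf3 ratio was 1.63 (1.36 to 1.97), that of LOC100504180 1.31 (1.06 to 1.62) and that of Gm9919 0.810 (0.500 to 1.30). The local background also rose, though less than the summit, at Duxf3 (1.31 unscaled, 1.52 scaled) and at LOC100504180 (1.11 unscaled, 1.29 scaled). The ratio of the caller's folds was therefore below the unscaled pileup ratio there, 1.26 at Duxf3 and 1.18 at LOC100504180. At Gm9919 the local background fell, with an unscaled ratio of 0.814, and the ratio of folds, 0.952, lay above that of the pileups.

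Side by side, the Duxf3 ratio was 2.01 times that of Gm9919 and 1.25 times that of LOC100504180, and the LOC100504180 ratio was 1.62 times that of Gm9919. Whether the peaks changed differently cannot be tested with 1 library per group. Within the untreated library Duxf3 had 1.20 times the pileup of LOC100504180 (0.964 to 1.49), and within the adriamycin library 1.5 times (1.25 to 1.79). Against Gm9919 it had 4.45 times the pileup untreated (3.17 to 6.38) and 8.97 times with adriamycin (6.28 to 13.2).

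Over shared peaks outside the window the ratio was set against the untreated pileup. That pileup is also the lower part of the ratio, and a shared peak had to be called in both lists, so the values at low pileups are in part fixed by the grouping. The median was 1.51 for 924 peaks with an untreated pileup under 12 fragments, 1.32 from 12 to under 20, 1.21 from 20 to under 30, 1.13 from 30 to under 50, 1.03 from 50 to under 75, 0.999 from 75 to under 100 and 0.959 for the 63 peaks from 100 upward. The quartiles of that last group were 0.902 and 1.03 and its highest value 1.53, below the Duxf3 ratio. In the 30 to under 50 group, where Gm9919 belongs, the quartiles were 0.952 and 1.35, and Gm9919 lay below the lower one. Grouped by the mean of both pileups, the adriamycin one scaled, a choice made after seeing the data, the median did not fall throughout. It was 1.16 under 12 fragments, 1.31 from 12 to under 20, 1.44 from 20 to under 30, 1.38 from 30 to under 50, 1.07 from 50 to under 75, 1.03 from 75 to under 100 and 0.963 for the 64 peaks from 100 upward. The highest value of that last group was again 1.53, and the lower quartile of the group of Gm9919, from 30 to under 50, was 1.11.

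**Figure D3:**
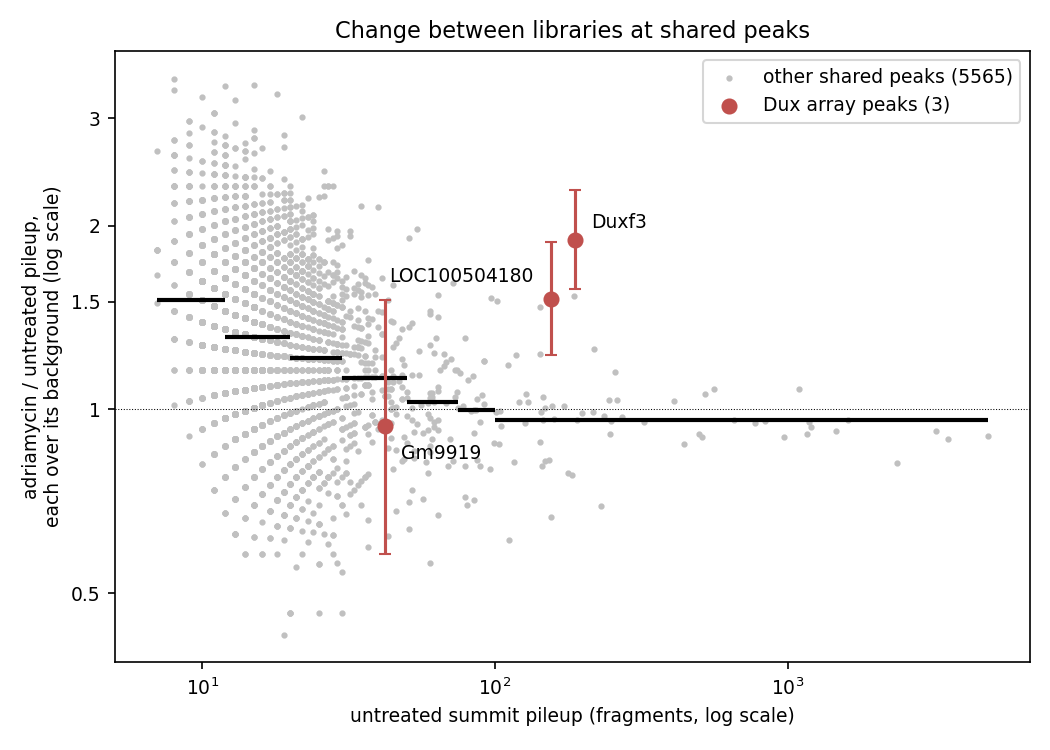
Ratio of adriamycin to untreated pileup, each over its genome-wide background, against untreated pileup in fragments (log scales), for 5565 other shared peaks (grey) and the 3 array peaks (red, with 95% intervals for counting error). Black lines are medians by untreated pileup, which is also part of the ratio, and run from 1.51 to 0.959, while Duxf3 at 1.89 lies above every other peak of 100 or more fragments.

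Over all 5565 shared peaks outside the window 529 had a ratio above that of Duxf3, which left 90.5% below it, and 1677 had one above that of LOC100504180. By the ratio of the caller's folds 1867 exceeded Duxf3. Among strong shared peaks the place of Duxf3 depended on how strong was defined. Strong was first defined as the strongest 1% of both lists by fold. This gave 71 peaks with a median ratio of 0.991 (quartiles 0.888 and 1.15, range 0.611 to 1.54), of which 4.23% passed 1.5. The Dux peaks are not among them by fold, so a second definition by height was used. It was a pileup over 60 times the genome-wide background in both lists. This definition holds Duxf3 and LOC100504180 but not Gm9919, which stood at 35.2 times untreated and 33.1 times with adriamycin. It gave 88 other peaks with a median of 0.988 (quartiles 0.912 and 1.06, range 0.666 to 1.61), of which 4.55% passed 1.5. Of these, 19 lie in a single stretch of 34.9 kb at the start of chromosome 9, with ratios from 0.816 to 1.08, and the median of the other 69 was 0.999. The other 69 still hold peaks at similarly low coordinates of chromosomes 4, 11, 13, 16, 17, 18 and Y, which were not set apart. Of the 88, 62 had a local background at least 5 times the genome-wide one in both lists, with a median ratio of 0.973. Whether the heights of the 88 peaks reflect DPPA2 binding or repeat copies was not tested. None of the 71 or the 88 had a ratio above that of Duxf3, and 3 of each set had one above that of LOC100504180. In the strongest 5% by fold, 281 peaks, 6 had a ratio above that of Duxf3, and 37 did by the ratio of the caller's folds. Duxf3 itself falls outside that set, at the top 5.24% by fold untreated. The 95% interval of Duxf3, for counting error only, overlapped those of 12 of the 88 peaks, and that of LOC100504180 overlapped those of 45. The ratio of the local background was 1.52 at Duxf3, against a median of 0.969 and a highest value of 1.51 among the 88. By the ratio of the caller's folds 1 of the 88 exceeded Duxf3.

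**Figure D4:**
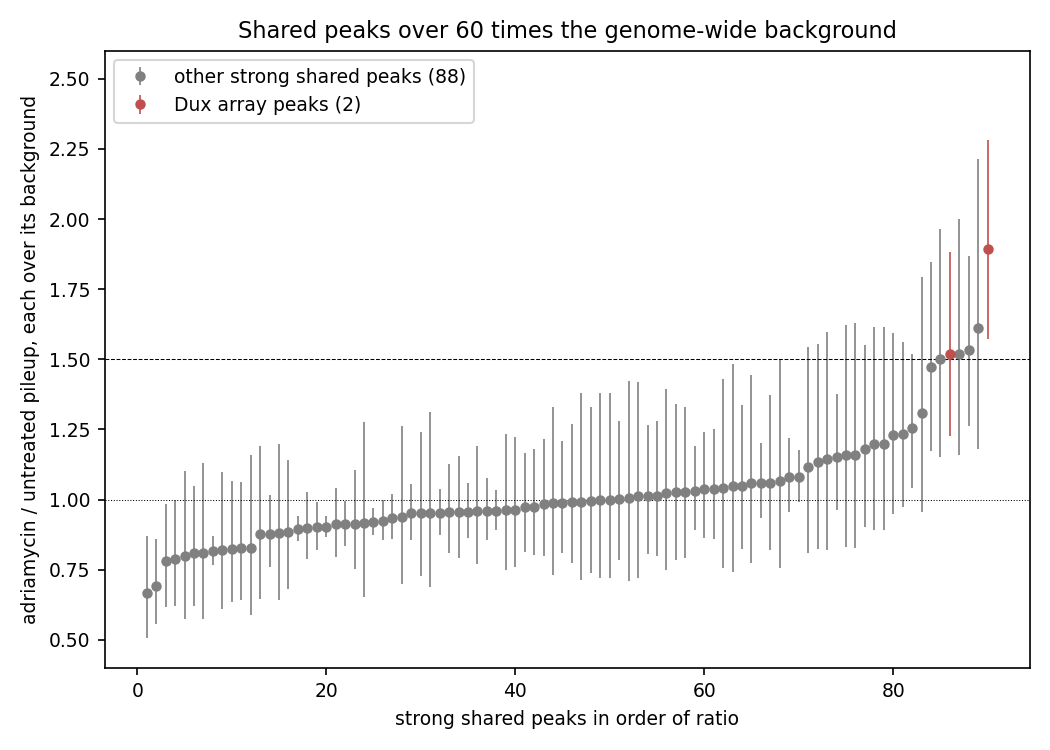
The 90 shared peaks over 60 times the genome-wide background, in order of the ratio of adriamycin to untreated pileup, each over its background, with 95% intervals for counting error. The dotted line marks 1 and the dashed line 1.5. Duxf3 is last in order at 1.89 and LOC100504180 lies at 1.52, while the median of the other 88 is 0.988. Gm9919, with a ratio of 0.939, is below that height and not shown.

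The peaks next to Duxf3 in that order were chosen after their values were seen. The peak at chromosome 6, 114560876 to 114561464, between genes, went from 72 to 100 fragments (scaled ratio 1.61, 1.18 to 2.21). The peak at chromosome 15, 99707868 to 99708402, inside Smarcd1, which encodes a subunit of the BAF chromatin remodelling complex, went from 186 to 246 fragments (1.53, 1.26 to 1.87). The peak at chromosome 2, 11062173 to 11062505, went from 97 to 127 fragments (1.52, 1.16 to 2.00). After LOC100504180 came a pair of peaks between genes on chromosome 8. The peak at 20122332 to 20122984 went from 102 to 132 fragments (1.5, 1.15 to 1.96), and the peak at 19784464 to 19785135 went from 142 to 180 fragments (1.47, 1.17 to 1.85). Each of these 5 intervals overlaps that of Duxf3. By contrast, the 5 shared peaks with the highest fold ranks had ratios of 1.04 (chromosome 3, 56575434 to 56575785), 1.26 (chromosome 15, 60141698 to 60142042), 0.879 (chromosome X, 76598550 to 76599165), 0.974 (chromosome 18, 85697900 to 85698291) and 0.989 (inside Lars2, a gene for a mitochondrial tRNA synthetase).

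The related Duxbl genes on chromosome 14 had no summit within 1 kb of an end in either library. Most protein-coding genes had none either, as 5.78% had one untreated and 16.0% with adriamycin. The lack of peaks is therefore not a result about the Duxbl genes. The nearest untreated summits lay 402668 bp from an end of Duxbl1 (25978560 to 25990166), 542440 bp from Duxbl2 (26118332 to 26129785) and 435257 bp from Duxbl3 (26257945 to 26269434). With adriamycin these distances were 210017, 349789 and 265091 bp.

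Genes known to act on Dux were looked at next, by summits within 1 kb of a gene end. Of 32 regulators, 1 had such a peak untreated (3.12%, 0.0791 to 16.2%, exact Clopper-Pearson), beside 5.78% of all 21887 protein-coding genes, and 6 had one with adriamycin (18.8%, 7.21 to 36.4%), beside 16.0% of all. Both shares are near the background. The untreated peak was at Pias4, which encodes a SUMO ligase, where 17 fragments (9.90 to 27.2) gave a fold of 4.11. With adriamycin the strongest was at Tet2, which encodes a DNA demethylation enzyme, where 20 fragments (12.2 to 30.9) gave a fold of 7.19. Kdm1a, which encodes the histone demethylase LSD1, had 19 fragments (11.4 to 29.7) at its summit and a fold of 5.65. The others were Rif1 (fold 4.76), Ep300 (4.32), Mga (4.14) and Setdb1 (3.69), with pileups of 15, 11, 10 and 8 fragments. Dppa2 and Dppa4 themselves and Trp53, which encodes p53, had none in either list.

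Genes that DUX is known to activate had no peak at their ends in either library. Of 30 listed, 25 had a protein-coding entry, and 0 of the 25 had a summit within 1 kb in either list, which allows a share of up to 12% (3 counts of 25; the exact Clopper-Pearson limit is 13.7%). These included Zfp352, Tcstv1 and Tcstv3, and also Zscan4c, Zscan4d and Zscan4f, which count among the regulators above as well. Both limits lie above the 5.78% of all genes untreated and below the 16.0% with adriamycin, whose list was longer. With lists of equal length it was again 0 with adriamycin, beside 5.73% of all genes, which lies below both limits. Many of the listed genes also lie in clusters of near-identical copies. The limits treat the 25 genes as independent, so they are too low, and no shortfall is read from them.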

How the data were processed

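Peaks were deposited as 1 list per library. Per the submitters' processing notes, the build was mm10 and the tools were deepTools 3.5.1, MACS3 3.0.0b1, SAMtools, Bowtie2 2.5.1 and FastQC 0.12.1. For filters, fragments with several alignments and any input control, the sources used here give nothing. Of the deposited columns, the fold is the authors' ratio of summit to local background. The deposited −log10 q and −log10 p belong to the same summit, and the score of the authors is −log10 q times 10 without its decimals. The last column, of another unit, is the deposited distance in bp between start and summit.

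Lists carry no read totals, so depth was read from the pileup. It is the whole number that gives both fold, with 1 added to both summit and background, and −log10 p, as a Poisson upper tail, within 0.001 or a relative 1e-05. It was recovered for every peak of both lists on chromosomes 1 to 19, X and Y. Recovery was tested on simulated data. The lowest background recovered was taken as the genome-wide one. That the library served as its own background is read from the steps of the values and is stated nowhere.

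Peaks were paired one to one by an overlap of at least 1 bp, nearest summits first, giving 5568 pairs. Ratio intervals are exact for 2 Poisson counts at 95%. Groups came from the labels, that of the treated library from its title. Gene positions are those of RefSeq GRCm38.p6. Named genes were Duxf3, those of the window, Dux symbols, list members with a peak, and the 5 shared peaks with the highest fold ranks, beside peaks named as chosen later. The members and lists were chosen with earlier results of these data known. Peak sequences were not analysed here. Python 3.11.15, numpy 2.4.6, pandas 2.3.3, scipy 1.17.1 and matplotlib 3.10.9 were used.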

Additional observations from a re-analysis of the deposited data

How the results depend on the processing

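Of 40 alternatives, 33 kept a count within 1.5 times or a ratio within its interval or quartiles, and 7 moved it further. The number of peaks in the window stayed at 4 and 3 with a −log10 q of at least 5, a fold of at least 5 or lists of equal length, and the adriamycin count became 4 in a window wider by 100 kb on each side, which takes in the Edar peak. All 3 shared peaks remained paired with a reciprocal overlap of 50% or with summits within 100 bp. By the caller's folds the ratio was 1.26 at Duxf3 and 1.18 at LOC100504180. Scaled by the median of all shared peaks it was 1.44 and 1.15, so that neither passed 1.5. Scaled by the median of the strongest 1% it was 1.91 and 1.53, and after taking off the local background, an alternative chosen after seeing the data, 1.94 and 1.55. Unscaled, 1.63 and 1.31, the second did not pass 1.5. The median ratio of strong shared peaks went from 0.991, below 1, to 1.16, above it, for the strongest 5% by fold, where 6 of 281 peaks exceeded Duxf3, and between 0.962 and 0.999 by −log10 q or height, including 3 definitions by height chosen after seeing the data. With lists of equal length 2 regulators (Tet2 and Kdm1a) had a peak with adriamycin in place of 6. That was 6.25% of the regulators, beside 5.73% of all genes. Within 5 kb 8 regulators and 1 DUX-activated gene (Tdpoz2) had one with adriamycin in place of 6 and 0. Those shares were 25% and 4%, beside 25.8% of all genes. No paired analysis was possible because each group had 1 library. Counting error limits the Gm9919 ratio, whose interval spans 0.580 to 1.51, and no depth or alternative replaces replicates.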
